A study of Mus musculus with 12 samples.

Results

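The genes described here are 28 mouse genes that make, sense, move or export cholesterol, chosen by name as a list. This list and the further gene lists below were chosen with earlier results of these data known. Their shares of called genes, set beside those of all genes, are therefore descriptions and not tests. The 28 are called members below. They were 28 of 24532 genes with values in mouse kidney, and all 28 were among the 14488 genes that passed the filter on low values. By role, 7 act in the mevalonate and isoprenoid steps, 11 in the squalene and sterol steps, 4 in sterol sensing, 4 in sterol transfer, receptor decay and lysosomal export, and 2 in efflux. Total RNA of whole kidney was sequenced from 4 groups of 3 libraries, all from mice fasted overnight. Wild-type mice (C57BL/6) received vehicle or GW4064, and FXR knockout mice (labelled Nr1h4tm1Gonz/J, a constitutive disruption of Nr1h4) received vehicle or GW4064. GW4064 is a synthetic agonist of FXR, the bile acid receptor encoded by Nr1h4, and its time is given as 6 h, while no label gives a time for the vehicle or an age of the mice. The study's title concerns kidney injury by cisplatin and ferroptosis, but no library here is labelled with cisplatin. No label states that replicates were separate mice, so p-values measure only the spread between these libraries, which may be technical.

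Cholesterol is made from acetyl-CoA through mevalonate, isoprenoid units, squalene and a series of sterols. When sterols in the endoplasmic reticulum run low, SCAP carries the transcription factor SREBP-2 (encoded by Srebf2) to the Golgi, where it is cut free and raises the genes of synthesis and uptake, and when sterols are plentiful INSIG proteins hold SCAP back. Excess cholesterol feeds oxysterols, which activate LXR, and LXR raises efflux pumps such as ABCA1 and the ligase MYLIP, which marks lipoprotein receptors for decay.

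Levels are given as TPM (a level per transcript length, scaled to the same total in each library), and differences as log2 differences of TPM + 0.5 with their standard errors. A gene was called where limma's p, adjusted over all 14488 genes by the Benjamini-Hochberg method, was under 0.05. The libraries held 2.86 to 4.27 gigabases of mapped sequence over genes, and the mean coverage of the 28 genes ran from 4.51 to 951 reads per base. The median coverage over libraries was below the median TPM for Scap (13.6 at 58.2 TPM) and Pmvk (6.70 at 25.0 TPM). It was above the median TPM for the other members. The cause was not tested, so the levels of Scap and Pmvk are uncertain. Nr1h4 itself was at 217, 267 and 249 TPM in wild-type vehicle, 189, 206 and 242 in wild-type GW4064, 119.9, 116 and 113 in knockout vehicle and 105, 131 and 134 in knockout GW4064 libraries, so every knockout library was below every wild-type library. All 6 proximal tubule markers were present, with a summed level of 53284 to 69853 TPM over the 12 libraries. Of 8 adrenal cortex markers, a neighbouring tissue rich in cholesterol genes, only Star passed the filter, Cyp11b1 and Cyp11b2 were listed at 0 in every library, and the summed level was 1.70 to 2.65 TPM. The summed level of 8 fat markers was 184 to 190 TPM in wild-type vehicle, 154 to 229 in wild-type GW4064, 170 to 216 in knockout vehicle and 171 to 297 in knockout GW4064 libraries. Of the 6 tested ones, 0 were called in any comparison, but their differences were wide. With GW4064 in wild type they ran from -1.79 to 0.49, with a median of -0.74. The responses of the genotypes (knockout minus wild type) differed by -0.25 to 2.21, with 5 of the 6 above 0. The lack of calls therefore does not show that fat content was even.

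Hmgcs1, the cytosolic HMG-CoA synthase that commits acetyl units to the pathway, was by far the most abundant of the 28 genes in these kidneys, at 370 to 617 TPM over the 12 libraries. It made up 39.6% to 46.7% of the summed level of the 18 synthesis genes. Cyp51, the lanosterol demethylase, followed at 121 to 191 TPM, and Acat2, the cytosolic thiolase that joins 2 acetyl-CoA, at 85.0 to 115 TPM, and the ranges of these 2 genes did not overlap. At the low end stood Dhcr7, the last reductase of one branch of sterol synthesis, at 4.83 to 11.5 TPM, and Abcg1, a sterol pump that loads HDL, at 5.94 to 8.11 TPM. Dhcr7 and Mvd, the decarboxylase that makes isopentenyl diphosphate, varied most among the 28, with a highest library 2.39 and 2.16 times the lowest. Npc2, the soluble cholesterol carrier of the lysosome, varied least, with a ratio of 1.13. The summed level of the 18 synthesis genes was 1214 to 1264 TPM in wild-type vehicle, 1303 to 1330 in wild-type GW4064, 1024 to 1068 in knockout vehicle and 934 to 1002 in knockout GW4064 libraries. These 4 ranges did not overlap, and without Hmgcs1 the sums were 680 to 700, 696 to 713, 615 to 634 and 564 to 597 TPM, where the wild-type ranges overlapped. In whole tissue, less RNA per cell and fewer of the cells that hold it cannot be told apart.

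**Figure D1:**
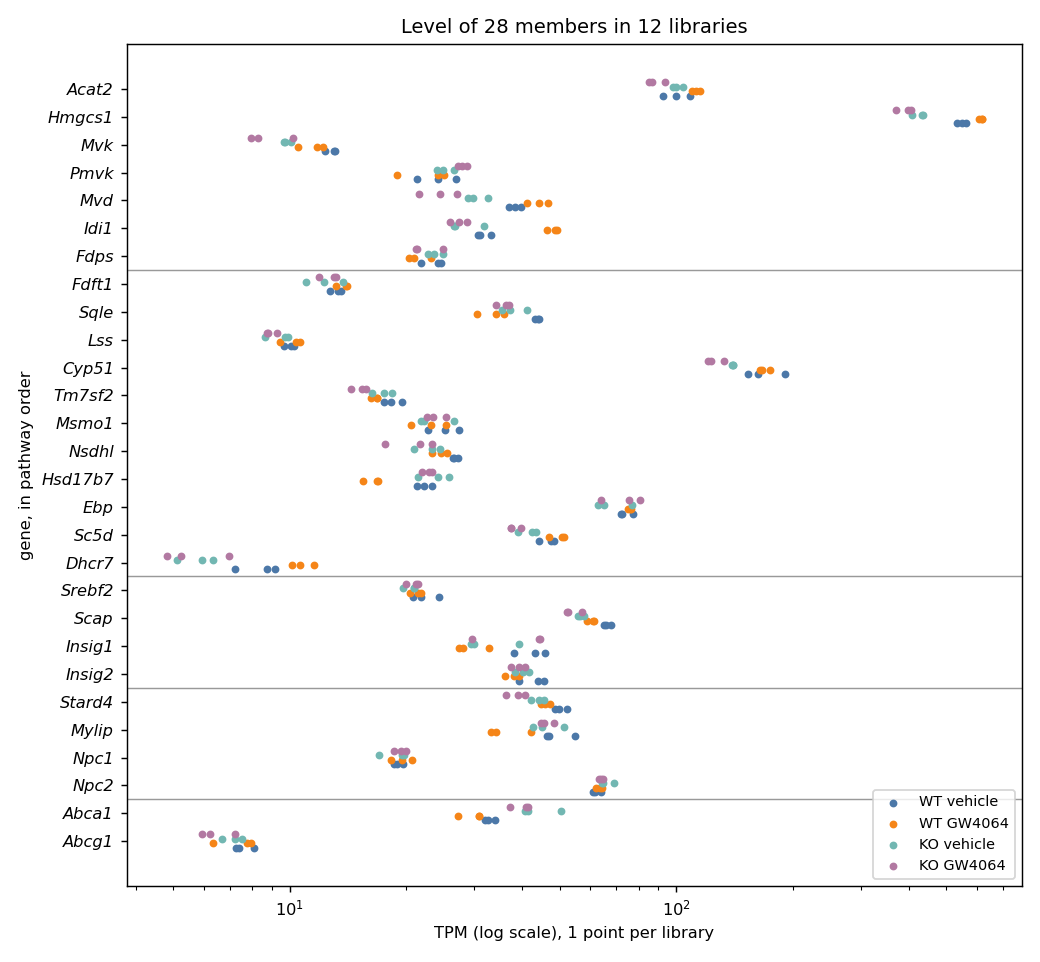
Level of each of the 28 genes in TPM on a log axis, 1 point per library, coloured by group and ordered by role. Hmgcs1 lies highest at 370 to 617 TPM and Dhcr7 and Abcg1 lowest.

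GW4064 in wild-type kidney moved 4 of the 28 genes, and in opposite directions. Idi1 rose, while Sqle, Hsd17b7 and Mylip fell. These 4 genes are 14.3% of the members, beside 4.8% of all genes tested that were called (2.48% higher and 2.32% lower). The median difference of the 28 genes was -0.08, and that of all genes -0.03. The other 24 genes did not pass the test, and 12 of the 28 had an unadjusted p under 0.05. In some alternatives 2 of the 28 were called higher, and these alternatives are listed at the end. The vehicle and GW4064 groups did not overlap for 16 of the 28, beside 26.8% of all genes.

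Idi1 (isopentenyl diphosphate isomerase, Entrez Gene 319554, chromosome 13, 8885606 to 8892396 of mm10) supplies the activated isoprenoid unit from which sterols, dolichol and prenyl groups are built. It was at 33.1, 30.6 and 31.1 TPM on vehicle in wild type and rose to 48.6, 46.3 and 49.2 TPM with GW4064. All 3 libraries with the agonist lay above all 3 without it. The log2 difference was 0.59 ± 0.07 (1.51-fold higher, adjusted p = 6.0e-04). In the knockout, Idi1 was at 31.8, 26.6 and 26.7 TPM on vehicle and 27.4, 28.7 and 26.1 TPM with GW4064, and these groups overlapped. That difference was -0.05 ± 0.07, with a 95% interval of -0.20 to 0.11 (adjusted p = 0.862). The response of the knockout minus that of wild type was -0.64 ± 0.10 (adjusted p = 0.00627). Both the rise in wild type and the difference between the responses were called in all 12 removals of a single library and in every other alternative run.

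Hmgcs1 (Entrez Gene 208715, chromosome 13, 119690351 to 119708260) was at 549, 534 and 564 TPM in wild-type vehicle and 617, 607 and 617 TPM in wild-type GW4064 libraries. The groups did not overlap, but the difference of 0.16 ± 0.04 missed the threshold (adjusted p = 0.0503). Acat2 differed by 0.17 (adjusted p = 0.141) and Mvd by 0.19 (adjusted p = 0.211). Mvk and Pmvk, the kinases that phosphorylate mevalonate in turn, and Fdps, which builds farnesyl diphosphate, differed by -0.15, -0.09 and -0.13, with adjusted p of 0.409, 0.698 and 0.427. Idi1 was the single called gene of the 7 in these steps.

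Sqle (squalene epoxidase, Entrez Gene 20775, chromosome 15, 59315092 to 59331193) performs the first oxygen-requiring step of sterol synthesis and is a rate-controlling enzyme of the later pathway. It was at 43.9, 44.2 and 43.0 TPM in wild-type vehicle and 35.8, 34.3 and 30.5 TPM in wild-type GW4064 libraries. Every library with the agonist was below every library without it, and the log2 difference was -0.38 ± 0.07 (1.3-fold lower, adjusted p = 0.00836). Hsd17b7 (Entrez Gene 15490, chromosome 1, 169949537 to 169969205), the 3-ketosteroid reductase that acts in removal of the C4 methyl groups, was at 21.4, 23.3 and 22.3 TPM in the vehicle group and at 16.8, 16.9 and 15.5 TPM with GW4064. These groups did not overlap either, and the difference was -0.43 ± 0.07 (1.35-fold lower, adjusted p = 0.00543). Both falls were called in every one of the 25 alternatives. In the knockout, Sqle was at 35.4, 37.1 and 41.2 TPM on vehicle and 36.9, 36.3 and 34.2 TPM with GW4064, a difference of -0.08 (95% interval -0.23 to 0.07). Hsd17b7 differed there by -0.06 (95% interval -0.22 to 0.10). The test of the difference between genotypes was not passed for Sqle (0.30 ± 0.10, adjusted p = 0.122) or Hsd17b7 (0.37 ± 0.10, adjusted p = 0.0785), so the fall in wild type is not shown to differ from the change in the knockout. The other 9 genes of the squalene and sterol steps were not called in wild type: Dhcr7 had the highest difference (0.35 ± 0.14, adjusted p = 0.183) and Tm7sf2, a sterol reductase, the lowest (-0.15, adjusted p = 0.261).

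Mylip (Entrez Gene 218203, chromosome 13, 45389742 to 45411940), the ubiquitin ligase that LXR raises, was at 46.2, 54.7 and 47.0 TPM in wild-type vehicle and 33.1, 34.1 and 42.0 TPM in wild-type GW4064 libraries. The groups did not overlap, with GW4064 replicate 3 the nearest to the vehicle libraries. The difference was -0.43 ± 0.10 (adjusted p = 0.0282). That call was lost without replicate 2 or 3 of wild-type vehicle or replicate 1 or 2 of wild-type GW4064 (adjusted p up to 0.12). It was also lost without the variance trend (adjusted p = 0.0539), with only the groups compared (adjusted p = 0.0551) and with a fat marker score in the model (adjusted p = 0.0843). In the knockout it was at 42.6, 44.9 and 51.3 TPM on vehicle and at 45.6, 44.8 and 48.3 TPM with GW4064, a difference of 0.00, and the test of the difference between the responses was not passed (0.44 ± 0.14, adjusted p = 0.121). None of the other genes of sterol transfer and lysosomal export was called in wild type. Stard4, a carrier of cholesterol between membranes, differed by -0.13, Npc1, the membrane exporter of the lysosome, by 0.03 and Npc2 by 0.02. Npc1 and Fdft1 overlap a neighbouring gene on the opposite strand, and no source used here says whether counting used strand, so their values may hold reads of that neighbour.

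Insig1, which holds SCAP in the endoplasmic reticulum and is itself a target of SREBP-2, had the lowest difference of the 28 genes with GW4064 in wild type but was not called. It was at 38.0, 45.8 and 43.0 TPM in wild-type vehicle, 27.4, 28.1 and 32.7 in wild-type GW4064, 30.0, 39.3 and 29.5 in knockout vehicle and 29.7, 44.2 and 44.5 in knockout GW4064 libraries. The wild-type groups did not overlap, while knockout GW4064 replicate 1 lay within its vehicle group and the other two libraries lay above it. The differences were -0.52 ± 0.16 in wild type (adjusted p = 0.0899) and 0.24 ± 0.16 in the knockout (adjusted p = 0.612), and the difference between them 0.76 ± 0.22 (adjusted p = 0.0903). Srebf2, Scap and Insig2, the second INSIG gene, differed by -0.07, -0.14 and -0.18 in wild type, and none was called. The efflux pumps Abca1 and Abcg1 differed by -0.14 (adjusted p = 0.381) and -0.05 (adjusted p = 0.857). Among the cell type markers, Csf1r (macrophages) and Cubn (proximal tubule, lost without replicate 1 of wild-type vehicle or replicate 1 of wild-type GW4064, with adjusted p up to 0.074) were called higher and Aqp2 (collecting duct) lower with GW4064 in wild type, and their part in the members' differences was not tested. The summed macrophage markers were at 131 to 145 TPM on vehicle and 143 to 153 TPM with GW4064.

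**Figure D2:**
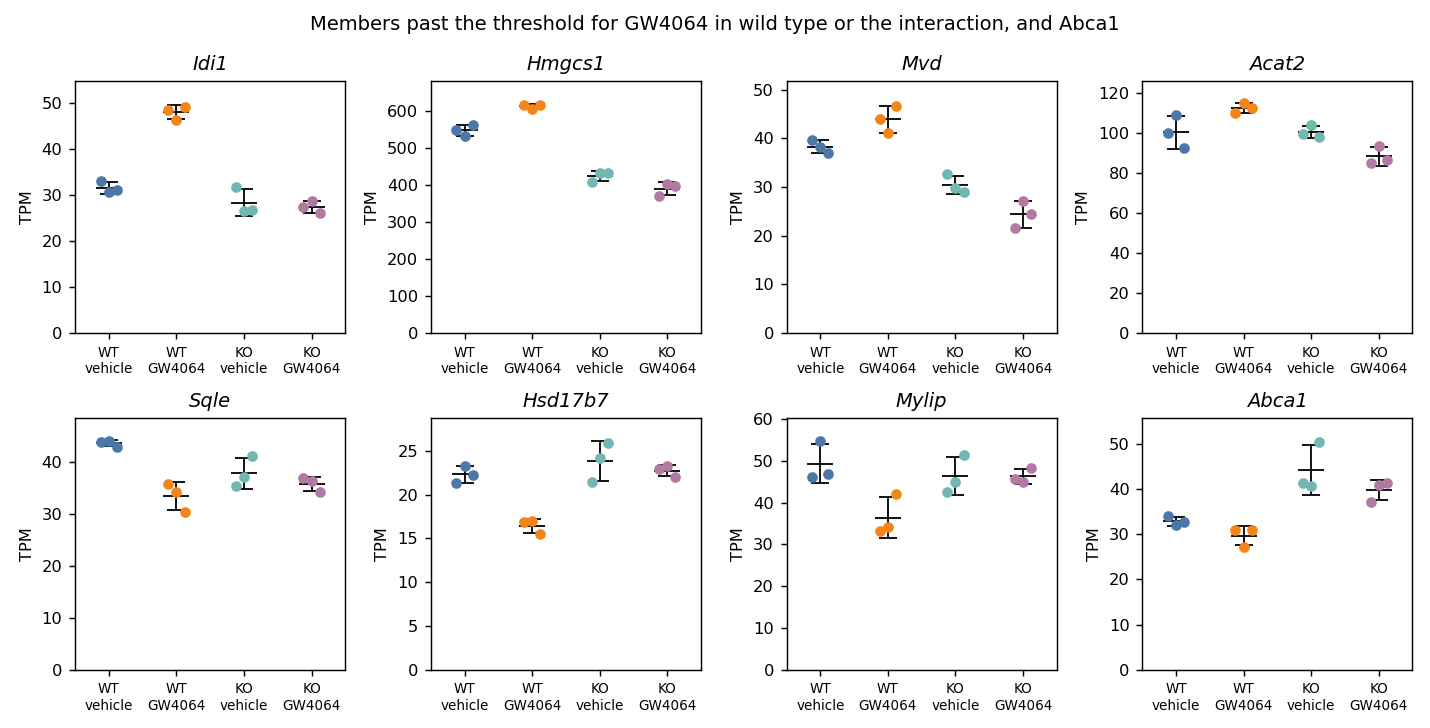
Level in TPM (vertical axis, from 0) of 8 genes in each library (points), with the mean and SD of each of the 4 groups as lines. Idi1 stands at 46.3 to 49.2 TPM in wild-type GW4064 libraries and at 26.1 to 33.1 TPM in the other 9.

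In the knockout, GW4064 moved 0 of the 28 genes by limma, with 6 at an unadjusted p under 0.05. Across all genes tested, 0.0138% were called there (2 of 14488, 0.0069% higher and 0.0069% lower), so a count of 0 among the 28 is near the background. The lowest adjusted p among the 28 was 0.227, for Mvd (-0.32 ± 0.08, from 32.6, 29.8 and 29.0 to 21.6, 27.1 and 24.5 TPM). All knockout GW4064 libraries lay below the knockout vehicle libraries for this gene. The groups did not overlap for 7 of the 28, beside 13.9% of all genes. The 28 differences ranged from -0.32 to 0.24 with a median of -0.07, beside 0.02 for all genes.

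The response to GW4064 differed between the genotypes for 4 of the 28 genes (14.3%, beside 3.19% of all genes tested, 1.72% in the direction of the 4 and 1.47% in the other). All 4 belong to the 7 genes of the mevalonate and isoprenoid steps: Acat2, Hmgcs1, Mvd and Idi1. In each, the response in the knockout was lower than that in wild type, and 0 genes were called in the other direction. The 6 proximal tubule markers also had lower responses in the knockout, with a median of -0.23, 4 at an unadjusted p under 0.05 and Cubn called (-0.30 ± 0.06, adjusted p = 0.0264), and their part in the members' differences was not tested. The call for Cubn was lost without replicate 1 or 2 of wild-type vehicle, replicate 1 of wild-type GW4064, replicate 1 or 3 of knockout vehicle or replicate 3 of knockout GW4064 (adjusted p up to 0.0766). Idi1 is described above. Mvd was at 39.7, 38.3 and 37.0 TPM in wild-type vehicle and 44.1, 41.1 and 46.7 TPM in wild-type GW4064 libraries, beside the lower knockout levels given above. The difference between the responses was -0.51 ± 0.11 (adjusted p = 0.0343). Hmgcs1 was at 408, 434 and 432 TPM in knockout vehicle and 370.3, 405 and 399 TPM in knockout GW4064 libraries, and its responses differed by -0.28 ± 0.06 (adjusted p = 0.0267). Acat2 was at 100.1, 109 and 92.4 TPM in wild-type vehicle, 110.0, 115 and 113 in wild-type GW4064, 99.7, 104 and 98.1 in knockout vehicle and 85.0, 93.7 and 86.6 in knockout GW4064 libraries. The vehicle groups of Acat2 overlapped and the GW4064 groups did not, and its responses differed by -0.35 ± 0.08 (adjusted p = 0.0439).

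The calls for Hmgcs1, Mvd and Acat2, unlike that for Idi1, were lost when single libraries were left out. The call for Hmgcs1 was lost without replicate 1 or 2 of wild-type vehicle, replicate 1, 2 or 3 of wild-type GW4064 or replicate 3 of knockout vehicle (adjusted p up to 0.0742). That for Mvd was lost without replicate 1, 2 or 3 of wild-type vehicle, replicate 1 or 3 of wild-type GW4064, replicate 1 of knockout vehicle or replicate 1 or 3 of knockout GW4064 (adjusted p up to 0.0892), and that for Acat2 without replicate 1 or 3 of wild-type vehicle, replicate 1, 2 or 3 of wild-type GW4064, replicate 1, 2 or 3 of knockout vehicle or replicate 1 or 3 of knockout GW4064 (adjusted p up to 0.0984). The count of 4 was 1 or 2 without replicate 1, 2 or 3 of wild-type vehicle, replicate 1, 2 or 3 of wild-type GW4064, replicate 1 or 3 of knockout vehicle or replicate 3 of knockout GW4064. With a fat marker score in the model, the 3 calls were also lost (adjusted p = 0.103, 0.123 and 0.14), while Idi1 was called (adjusted p = 0.0302). Acat2 also has a near-identical neighbour, Acat3, whose reads the authors' processing could share with it, so its values are uncertain. Acat3 was 0.45 with GW4064 in wild type (adjusted p = 0.0355, lost without replicate 1 or 3 of wild-type vehicle or replicate 1 or 2 of wild-type GW4064, with adjusted p up to 0.134) and -0.53 in the knockout against wild type under GW4064 (adjusted p = 0.00504).

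**Figure D3:**
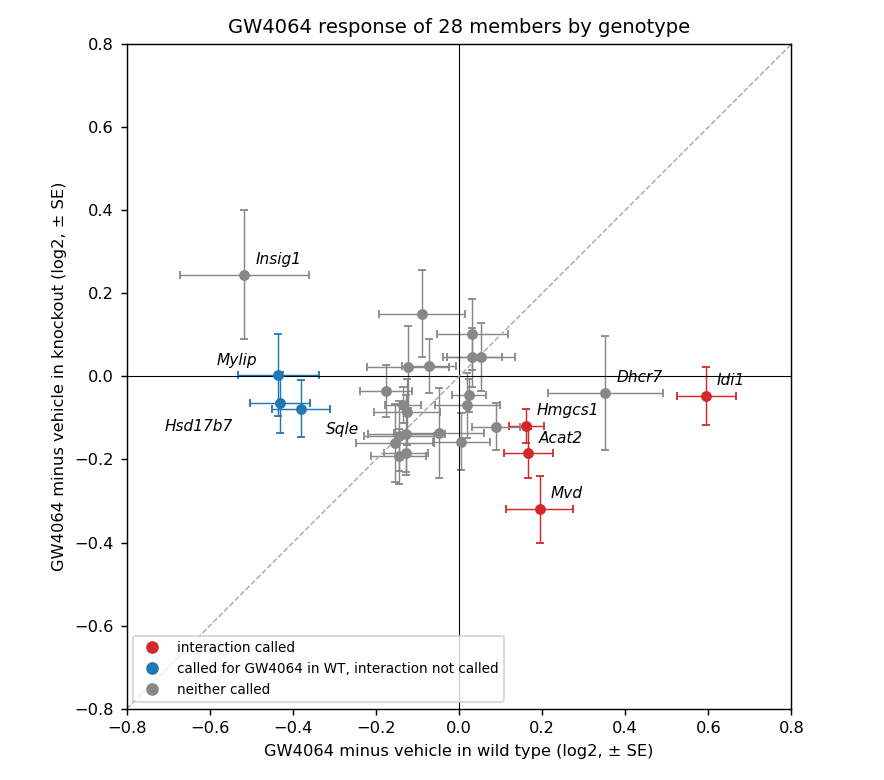
Log2 difference with GW4064 in wild type (horizontal axis) against that in the knockout (vertical axis) for the 28 genes, with standard errors as bars. Idi1 lies far to the right at 0.59 and -0.05, below the line of equal response.

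The sequence before the start of a gene is shown for the 4 genes whose responses differed and for Hsd17b7 and Mylip, which fell in wild type, so that the letters SREBP-2 and its partner are known to bind can be seen. Promoter sequences came from RefSeq (GRCm38.p6). They were searched for 22 of the 28 genes in 28 windows, since some genes have several starts. The 6 genes with no window searched were Sqle, Fdps, Fdft1, Stard4, Npc1 and Abcg1. Having no window here does not mean that a gene has no RefSeq entry. Each line gives the 250 bases before the start, 5′ to 3′ on the gene's strand, with matches on either strand in capitals: TCACNCCAC, a core of the sterol regulatory element, and CCAAT, the box of NF-Y, a factor that acts beside SREBP-2. On the other strand that box reads ATTGG. The windows are chr13:8885356-8885605 (+) for Idi1, chr13:119690101-119690350 (+) for Hmgcs1, chr8:122443423-122443672 (-) for Mvd, chr17:12960726-12960975 (-) for Acat2, chr1:169969206-169969455 (-) for Hsd17b7 and chr13:45389492-45389741 (+) for Mylip.
Idi1: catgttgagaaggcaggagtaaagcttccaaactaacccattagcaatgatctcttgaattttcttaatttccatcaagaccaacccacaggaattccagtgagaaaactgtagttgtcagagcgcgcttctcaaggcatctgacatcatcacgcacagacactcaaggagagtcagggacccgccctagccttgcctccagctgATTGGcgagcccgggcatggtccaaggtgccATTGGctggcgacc
Hmgcs1: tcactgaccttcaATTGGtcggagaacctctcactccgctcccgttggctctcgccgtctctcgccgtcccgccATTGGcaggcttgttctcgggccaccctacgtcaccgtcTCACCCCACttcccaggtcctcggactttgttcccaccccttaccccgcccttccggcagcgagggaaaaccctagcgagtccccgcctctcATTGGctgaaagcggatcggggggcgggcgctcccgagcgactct
Mvd: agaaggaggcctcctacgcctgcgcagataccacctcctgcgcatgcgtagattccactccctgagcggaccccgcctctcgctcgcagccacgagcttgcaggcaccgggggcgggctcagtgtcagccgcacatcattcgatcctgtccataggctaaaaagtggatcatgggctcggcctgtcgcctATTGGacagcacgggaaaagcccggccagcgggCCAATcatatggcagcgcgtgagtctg
Acat2: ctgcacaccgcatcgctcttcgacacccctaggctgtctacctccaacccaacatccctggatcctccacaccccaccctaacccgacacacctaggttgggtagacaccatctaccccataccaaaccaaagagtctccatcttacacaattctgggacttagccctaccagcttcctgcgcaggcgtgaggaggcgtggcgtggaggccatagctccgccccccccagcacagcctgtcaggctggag
Hsd17b7: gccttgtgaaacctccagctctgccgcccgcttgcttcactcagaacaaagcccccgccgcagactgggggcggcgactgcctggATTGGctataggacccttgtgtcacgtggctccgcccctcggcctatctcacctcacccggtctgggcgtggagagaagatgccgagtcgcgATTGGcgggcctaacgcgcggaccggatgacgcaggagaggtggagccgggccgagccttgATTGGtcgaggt
Mylip: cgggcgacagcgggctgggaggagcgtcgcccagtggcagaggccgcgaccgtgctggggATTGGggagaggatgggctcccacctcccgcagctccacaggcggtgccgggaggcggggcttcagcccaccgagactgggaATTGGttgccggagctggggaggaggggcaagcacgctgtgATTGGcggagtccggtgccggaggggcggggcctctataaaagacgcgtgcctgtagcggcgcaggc

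Idi1 held 2 CCAAT boxes within 45 bases of its start, Mvd 2 within 60 bases, and Hmgcs1, Hsd17b7 and Mylip 3 each, while Acat2 held no match to either motif. Of the 28 member windows, 19 (67.9%) held CCAAT, beside 33.8% of the 32851 RefSeq windows of the same length. The member share leaves out the genes with no window searched. TCACNCCAC was in 1 member window (3.57%), 137 to 129 bases before the start of Hmgcs1, and in 1.05% of all windows, and it overlapped no CCAAT match. A strict form of the FXR site (AGGTCA, 1 base of any kind, then the same letters inverted) and a strict form of the LXR site (AGGTCA, 4 bases of any kind, then AGGTCA again), which share the half-site AGGTCA, were in 0 member windows, and in 0.00609% and 0.0152% of all windows. A match is a description of letters, and no match says only that these letters are not in this window. CCAAT boxes stood before Idi1, which rose in wild type, and before Hsd17b7 and Mylip, which fell.

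Under GW4064, knockout and wild-type kidneys differed for 13 of the 28 genes, 10 of them lower and 3 higher in the knockout. This is 46.4% of the members, beside 18.5% of all genes tested (7.08% higher and 11.4% lower). The comparison uses the same GW4064 libraries as the responses above, so its values are given beside those and not as a separate line of evidence. Of the 18 synthesis genes, 8 were lower and 1 was higher. The groups did not overlap for 16 of the 28, beside 36.7% of all genes. Of the 6 proximal tubule markers, 3 (Lrp2, Slc34a1 and Cubn) were also called lower and 0 higher in the knockout under GW4064, and their part was not tested. The median over the 28 genes was -0.12, beside -0.03 for all genes.

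The mevalonate and isoprenoid steps held 5 of these genes, all lower in the knockout. Mvd differed by -0.84 ± 0.08 (1.79-fold lower, adjusted p = 3.2e-05), Idi1 by -0.80 ± 0.07 (1.74-fold lower, adjusted p = 1.7e-05) and Hmgcs1 by -0.65 ± 0.04 (1.57-fold lower, adjusted p = 1.9e-06). In each of the 3 genes, every knockout GW4064 library was below every wild-type GW4064 library. Acat2 differed by -0.35 (adjusted p = 0.00164) and Mvk by -0.37 (adjusted p = 0.0167), and the call for Mvk was lost without replicate 1 or 3 of wild-type GW4064 or replicate 2 or 3 of knockout GW4064 (adjusted p up to 0.0623). Pmvk (0.31, adjusted p = 0.0624) and Fdps (0.06, adjusted p = 0.678) were not called.

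Among the squalene and sterol steps, Dhcr7 showed the lowest value of the 28 in this comparison. Dhcr7 (Entrez Gene 13360, chromosome 7, 143823167 to 143848410) was at 10.7, 11.5 and 10.1 TPM in wild-type GW4064 and 6.96, 5.24 and 4.83 TPM in knockout GW4064 libraries. The groups did not overlap, and the difference was -0.88 ± 0.14 (1.84-fold lower, adjusted p = 0.00102). Cyp51 was at 167, 165 and 175 TPM in wild type and 121, 123 and 133 TPM in the knockout, a difference of -0.43 ± 0.07 (adjusted p = 0.00125). Sc5d, the desaturase that acts just before DHCR7, was at 50.6, 46.8 and 51.4 TPM in wild type and 39.6, 37.4 and 37.5 TPM in the knockout, a difference of -0.37 ± 0.06 (adjusted p = 8.7e-04). For both, every knockout library was below every wild-type library. Hsd17b7 went the other way: at 23.0, 23.3 and 22.0 TPM in the knockout it was 1.37-fold higher (0.46 ± 0.07, adjusted p = 0.0011). Sqle, which fell with the agonist in wild type, was at 36.9, 36.3 and 34.2 TPM in the knockout and overlapped wild type (0.10, adjusted p = 0.374). Fdft1 (squalene synthase), Lss (the cyclase that makes lanosterol), Tm7sf2, Msmo1 and Nsdhl (removal of the C4 methyl groups) and Ebp (a sterol isomerase) were not called, with differences between -0.23 and 0.05.

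Outside synthesis, Mylip was higher in the knockout under GW4064 (0.35, adjusted p = 0.0304), a call lost without replicate 1 or 2 of wild-type GW4064 or replicate 1, 2 or 3 of knockout GW4064 (adjusted p up to 0.119), in a fit with no variance trend, and when a fat or a macrophage marker score entered the model (adjusted p = 0.05, 0.0705 and 0.105). Stard4 was at 47.2, 45.8 and 44.8 TPM in wild type and 39.0, 40.6 and 36.2 TPM in the knockout, which did not overlap, and differed by -0.25 ± 0.05 (adjusted p = 0.00724). Scap differed by -0.16 (adjusted p = 0.0251), a call lost without replicate 2 or 3 of wild-type GW4064 or replicate 2 or 3 of knockout GW4064 (adjusted p up to 0.0846) and when libraries were scaled by median-of-ratios (adjusted p = 0.0949) or by quantiles (adjusted p = 0.165). Abca1, the third of the higher genes, is described with the vehicle libraries.

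On vehicle, 8 of the 28 genes differed between the genotypes, 7 lower and 1 higher in the knockout (28.6%, beside 12.9% of all genes tested, 3.19% higher and 9.73% lower). The groups did not overlap for 12 of the 28, beside 34.7% of all genes. The count of calls depends on how the libraries are scaled. The median over all genes was -0.09 here, so a gene at the middle of all genes was itself lower in the knockout, and the median over the 28 was -0.11. With median-of-ratios or quantile scaling, which bring that median close to 0, 3 of the 28 were called, Abca1 and Npc2 higher and Hmgcs1 lower. Over all genes the calls went from 462 higher and 1410 lower to 833 and 539 with median-of-ratios and to 674 and 591 with quantile scaling. The 8 calls became 3 to 5 without replicate 1, 2 or 3 of wild-type vehicle or replicate 1 or 2 of knockout vehicle.

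Hmgcs1 was the gene whose lower level on vehicle was called under each scaling and in all removals of a single library. It was at 549, 534 and 564 TPM in wild type and 408, 434 and 432 TPM in the knockout, which did not overlap. The difference was -0.37 ± 0.04 (1.29-fold lower, adjusted p = 3.9e-04). Mvk differed by -0.37 (adjusted p = 0.0261), a call lost without replicate 1, 2 or 3 of wild-type vehicle or replicate 1 or 2 of knockout vehicle (adjusted p up to 0.0828). Mvd differed by -0.33 (adjusted p = 0.0227), lost without replicate 1 or 2 of wild-type vehicle or replicate 2 or 3 of knockout vehicle (adjusted p up to 0.0775). Cyp51 differed by -0.26 (adjusted p = 0.029), lost without replicate 1 or 3 of wild-type vehicle or replicate 1, 2 or 3 of knockout vehicle (adjusted p up to 0.0727). Dhcr7 differed by -0.49 (adjusted p = 0.0393), lost without replicate 1 or 3 of wild-type vehicle, replicate 1, 2 or 3 of wild-type GW4064 or replicate 1 or 2 of knockout vehicle (adjusted p up to 0.128). Stard4 differed by -0.19 (adjusted p = 0.0361), lost without replicate 1, 2 or 3 of wild-type vehicle, replicate 2 of wild-type GW4064 or replicate 1 or 2 of knockout vehicle (adjusted p up to 0.123). Scap, at 65.2, 67.8 and 65.8 TPM in wild type and 55.7, 57.7 and 56.5 TPM in the knockout, differed by -0.23 (adjusted p = 0.00795). The 2 groups of Scap did not overlap, and its call was lost with median-of-ratios scaling (adjusted p = 0.0895) and with quantile scaling (adjusted p = 0.0532). Idi1 (-0.16, adjusted p = 0.155), Sqle (-0.21, adjusted p = 0.0707) and Hsd17b7 (0.09, adjusted p = 0.423) were not called on vehicle.

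Abca1 (Entrez Gene 11303, chromosome 4, 53030789 to 53159895), the pump that hands cholesterol and phospholipid to lipid-poor apolipoprotein, was higher in the knockout with and without the agonist. It was at 33.9, 32.0 and 32.7 TPM in wild-type vehicle and 41.3, 40.7 and 50.5 TPM in knockout vehicle libraries, and under GW4064 at 30.9, 27.3 and 31.0 TPM in wild type and 37.1, 40.8 and 41.4 TPM in the knockout. Knockout and wild type did not overlap in either setting. The differences were 0.41 ± 0.08 (adjusted p = 0.0102) and 0.42 ± 0.08 (adjusted p = 0.00526), and the GW4064 responses of the genotypes differed by 0.00. Some markers of macrophages, cells rich in ABCA1, also differed between the genotypes. On vehicle, 4 of 8 macrophage markers (C1qa, C1qb, Lyz2 and Mpeg1) were called higher and 0 lower in the knockout. Under GW4064, Lyz2 and Mpeg1 were higher and Csf1r lower. The summed level of the 8 markers was 131 to 145 TPM in wild-type vehicle, 170 to 182 in knockout vehicle, 143 to 153 in wild-type GW4064 and 145 to 186 in knockout GW4064 libraries. With the macrophage marker score in the model, the vehicle difference of Abca1 was 0.41 (adjusted p = 0.124) and the one under GW4064 was 0.42 (adjusted p = 0.0362), so the sizes stayed and the vehicle call was lost. On vehicle the marker sums did not overlap between the genotypes, so this fit cannot tell genotype and macrophage content apart there. The part of macrophages in the Abca1 differences was not tested. Abcg1, the other pump, was not called on vehicle (-0.08, adjusted p = 0.644) or under GW4064 (-0.17, adjusted p = 0.318). Markers of another cell type also moved on vehicle: the endothelial markers Pecam1 and Emcn (2 of 4) were lower in the knockout, and their part in the members' differences was not tested.

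**Figure D4:**
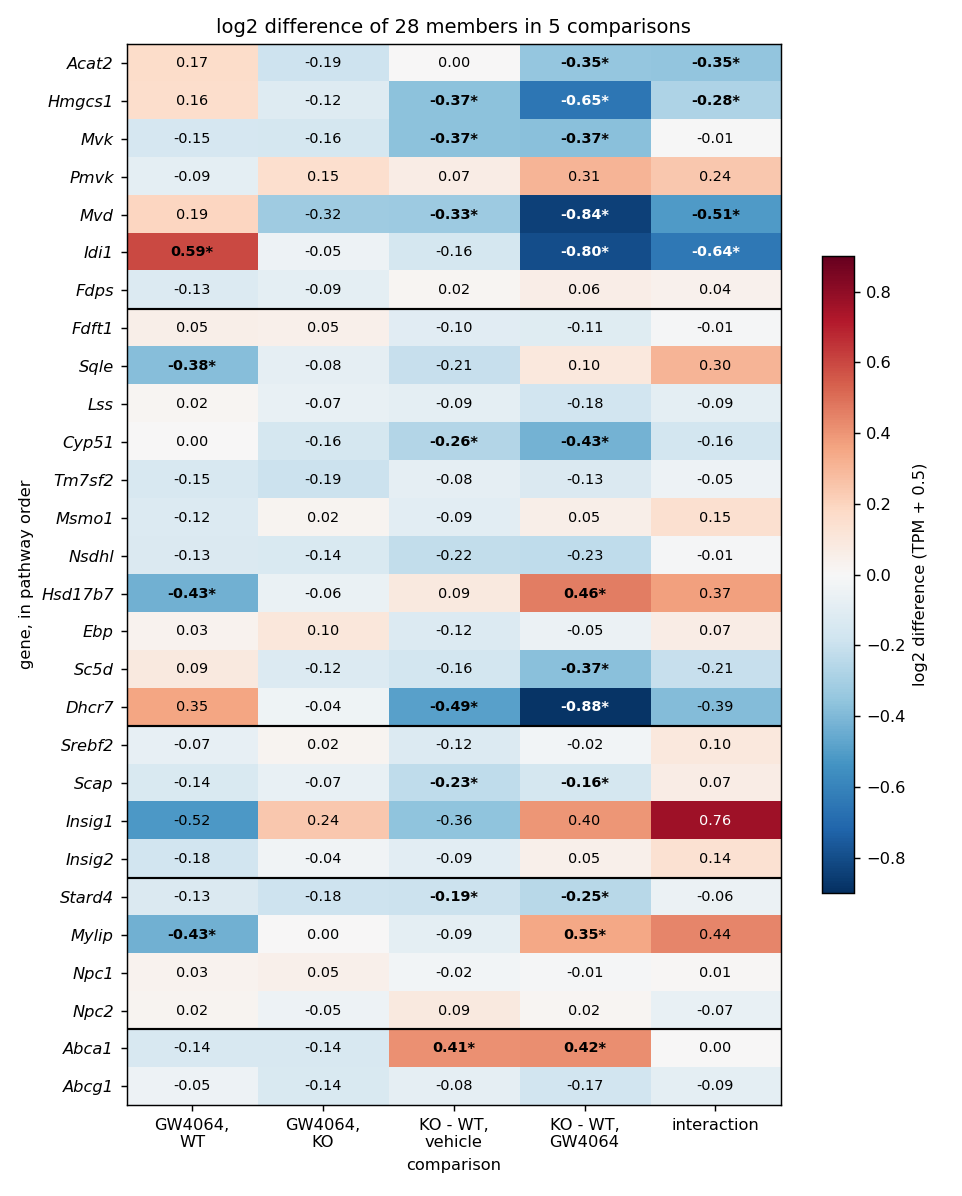
Log2 difference of each of the 28 genes (rows, in pathway order) in the 5 comparisons (columns), as colour and printed value, with an asterisk for called genes. In the column of knockout against wild type under GW4064, Dhcr7 at -0.88, Mvd at -0.84, Idi1 at -0.80 and Hmgcs1 at -0.65 are lowest, while Hsd17b7 at 0.46 and Abca1 at 0.42 are highest.

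Of 54 further genes of cholesterol handling, 53 had values and 50 were tested. GW4064 in wild type called 5 of the 50 (2 higher and 3 lower, 10%, beside 4.8% of all genes), and GW4064 in the knockout 0 (beside 0.0138%, with 9 of the 50 at an unadjusted p under 0.05). The knockout against wild type called 15 on vehicle (6 higher and 9 lower, 30%, beside 12.9% of all genes and 28.6% of the 28 members) and 12 under GW4064 (5 higher and 7 lower, 24%, beside 18.5% of all genes). The responses differed for 4 (8%, beside 3.19%). Gramd1b, which carries accessible cholesterol from the plasma membrane to the endoplasmic reticulum, was at 116, 130.1 and 121 TPM in wild-type vehicle and 81.9, 83.1 and 78.2 TPM in wild-type GW4064 libraries. These groups did not overlap, and the difference was -0.59 ± 0.07 (adjusted p = 4.3e-04), with responses that differed between the genotypes by 0.50 (adjusted p = 0.0165, or 0.0553 with the fat marker score in the model). Akr1d1, the steroid 5-beta-reductase of bile acid synthesis, rose in wild type from 37.1, 34.9 and 33.1 to 62.0, 55.2 and 55.5 TPM (0.71 ± 0.10, adjusted p = 0.00168). Its responses differed by -0.79 (adjusted p = 0.0126). Akr1d1 was also called lower in the knockout than in wild type, by -0.60 on vehicle and by -1.40 under GW4064. Lbr, a nuclear envelope protein that is also a sterol reductase, rose by 0.27 in wild type (adjusted p = 0.0212, lost without replicate 2 or 3 of wild-type vehicle or replicate 1, 2 or 3 of wild-type GW4064, with adjusted p up to 0.0834), while Lrp1, a lipoprotein receptor, and Cyp27a1, which makes 27-hydroxycholesterol, fell with adjusted p of 0.0468 and 0.0357. The call for Lrp1 was lost without replicate 1 or 3 of wild-type vehicle, replicate 1 or 2 of wild-type GW4064, replicate 1, 2 or 3 of knockout vehicle or replicate 1, 2 or 3 of knockout GW4064 (adjusted p up to 0.168) and that for Cyp27a1 without replicate 1, 2 or 3 of wild-type vehicle or replicate 1, 2 or 3 of wild-type GW4064 (adjusted p up to 0.112).

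Among these further genes, Cyp7b1, the oxysterol 7-alpha-hydroxylase, had the largest rise in the knockout. It was at 96.1, 129.7 and 132 TPM in wild-type vehicle, 269, 349 and 223 in knockout vehicle, 124, 153 and 181 in wild-type GW4064 and 331, 307 and 333 in knockout GW4064 libraries. No knockout library overlapped wild type, and the differences were 1.22 ± 0.17 on vehicle (adjusted p = 0.00143) and 1.10 ± 0.17 under GW4064 (adjusted p = 0.00104). Erlin1, which binds cholesterol and restrains SCAP and SREBP-2, was lower in the knockout under GW4064 (-0.64, adjusted p = 4.3e-04). Of the 7 LXR receptors and other LXR targets, 2 were called higher and 1 lower in the knockout on vehicle, and 2 higher and 0 lower under GW4064. Smpdl3a, a phosphodiesterase, was higher in the knockout by 0.30 on vehicle and 0.15 under GW4064 (adjusted p = 2.6e-04 and 0.0072), and Lpcat3, a phospholipid acyltransferase, by 0.16 and 0.24 (adjusted p = 0.0482 and 0.00468). Pltp, the phospholipid transfer protein, was lower on vehicle (-0.57, adjusted p = 0.0362). The vehicle call for Lpcat3 was lost without replicate 1, 2 or 3 of wild-type vehicle, replicate 1, 2 or 3 of wild-type GW4064, replicate 2 or 3 of knockout vehicle or replicate 1, 2 or 3 of knockout GW4064 (adjusted p up to 0.156), and that for Pltp without replicate 1, 2 or 3 of wild-type vehicle or replicate 1 or 2 of knockout vehicle (adjusted p up to 0.112) and with median-of-ratios (adjusted p = 0.0603) or quantile scaling (adjusted p = 0.0869). Lipa, the lysosomal lipase that frees cholesterol from its esters and is abundant in macrophages, was higher on vehicle by 0.50 ± 0.07 (adjusted p = 8.9e-04, or 0.0579 with the macrophage marker score in the model).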

How the data were processed

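The authors sequenced total RNA of kidney, prepared with a kit that marks strand, in 12 libraries, 3 in each of 4 groups taken from the labels; none was left out. HISAT2, StringTie, Cufflinks and mm10 are named per the submitters' processing notes, but no source used here gives versions, annotation or whether counting used strand. Tests used the TPM values that the authors deposited. The deposited FPKM values were an alternative, and the deposited coverage signal gave the depth. Tests for counts were not applied, since the values are not counts. Entries of 1 gene were summed (113 to 142 genes per library). Of 24532 identifiers, 24462 matched a symbol in the RefSeq gene table.

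A gene was kept if 3 or more libraries held at least 1 TPM. Group means were fitted to log2(TPM + 0.5) in limma 3.58.1 (R 4.3.3) with a variance trend, and the code was tested on simulated data. Log2 differences understate changes of genes at low TPM. Tables and figures used Python 3.11.15, pandas 2.3.3, numpy 2.4.6 and matplotlib 3.10.9. The 5 comparisons were GW4064 against vehicle in each genotype, knockout against wild type on each treatment, and the difference of the GW4064 responses (knockout minus wild type). Groups of 3 against 3 cannot give an exact permutation p under 0.1, so none was run. Members were named where called in any comparison or of lowest p in a role group; of the other pathway lists, at most 4 called genes per list were named by lowest p. The members and lists were chosen with earlier results of these data known. Results were recomputed with FPKM, other pseudocounts, other filters, other scalings, other variance models, a replicate block, a fat marker score, and without each library in turn. A macrophage marker score as covariate was chosen after seeing the data. A call described as lost without several libraries was lost when any 1 of them was left out.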

Additional observations from a re-analysis of the deposited data

Results flagged for a closer look

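The GW4064 response differed between the genotypes, by limma's test of the interaction over all genes, for 8 of the cholesterol genes named here. Knockout minus wild type, the log2 difference of responses was -0.64 for Idi1, -0.51 for Mvd, -0.35 for Acat2 and -0.28 for Hmgcs1. Among the further genes it was -0.79 for Akr1d1, -0.41 for Lbr, 0.56 for Lrp1 and 0.50 for Gramd1b. The proximal tubule marker Cubn gave -0.30 by the same test. With single libraries left out, Idi1, Akr1d1 and Gramd1b were called in all 12 removals, while the calls for the other 5 were each lost in at least 1; Lrp1 was lost without replicate 1 or 3 of wild-type vehicle, replicate 1 or 2 of wild-type GW4064, replicate 1, 2 or 3 of knockout vehicle or replicate 1, 2 or 3 of knockout GW4064 (adjusted p up to 0.114) and Lbr without replicate 3 of wild-type vehicle, replicate 1 of wild-type GW4064, replicate 1 of knockout vehicle or replicate 3 of knockout GW4064 (adjusted p up to 0.0584).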

How the results depend on the processing

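Of 140 values (28 genes in 5 comparisons), 29 were called; 15 of these were called in every alternative and 14 were lost in at least 1, while 10 of the 111 others gained a call. No called value changed direction. Members called higher with GW4064 in wild type numbered 1, and 2 with a filter at 5 TPM, median-of-ratios scaling, FPKM or array weights. The count was also 2 with only the groups compared or the macrophage marker score. It was 2 as well without replicate 1 of knockout vehicle or replicate 1 or 2 of knockout GW4064. Members called in the knockout against wild type on vehicle numbered 8, and 3 with quantile or median-of-ratios scaling, 5 with only the groups compared or the fat marker score, 4 with the macrophage marker score, and 3 to 8 over the removals of a single library. Members whose responses differed numbered 4, and 1 without the variance trend or with the fat marker score, and 1 to 4 over the removals. Over all genes, calls for GW4064 in wild type numbered 696, 428 with the fat marker score and 334 to 768 over the removals. For GW4064 in the knockout they numbered 2, and 1 with a pseudocount of 0.1, either scaling or array weights, 0 without the variance trend or with only the groups compared, 4 with the macrophage marker score and 0 to 51 over the removals, the highest without knockout GW4064 replicate 2. On vehicle they numbered 1872, 571 with the macrophage marker score and 926 to 1903 over the removals, under GW4064 2677 and 1726 to 2760, and for the difference of responses 462, 207 with the fat marker score and 216 to 535. With median-of-ratios and quantile scaling the higher and lower calls were 453 and 236, and 411 and 271, for GW4064 in wild type (360 and 336 as reported), 1250 and 1309, and 1306 and 1321, for the genotypes under GW4064 (1026 and 1651), and 141 and 346, and 161 and 276, for the difference of responses (213 and 249). With the replicate block, members called were 5 and 0 for GW4064 in wild type and knockout, 6 and 14 for the genotypes on vehicle and under GW4064, and 4 for the difference of responses, and 0 genes in all for GW4064 in the knockout. The numbers did not pair the libraries: deviations from group means correlated at -0.0748 to 0.0829 for the same number and -0.105 to 0.126 for other numbers. The cause of these shifts was not tested.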
